A study of Mus musculus with 9 samples.

Results

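The genes described here encode hormones and other proteins that fat cells release: leptin (*Lep*), adiponectin (*Adipoq*), resistin (*Retn*), adipsin (*Cfd*), angiotensinogen (*Agt*), retinol binding protein 4 (*Rbp4*), coiled-coil domain containing 3 (*Ccdc3*), nicotinamide phosphoribosyltransferase (*Nampt*), chemerin (*Rarres2*) and apelin (*Apln*). They were listed by name as known adipose secreted factors, with earlier results of these data known, and matched exactly to the 24356 gene symbols that each library lists. All 10 symbols were found, and all 10 were above 0 in every library, so that all 10 are among the 14675 genes tested. RNA was sequenced from whole brown adipose tissue (BAT), 1 library per mouse, to ask how the loss of growth hormone releasing hormone (GHRH), and with it of growth hormone (GH) secretion, changes its transcripts in each sex. The mutant mice (GHRH-KO, here KO) numbered 2 females and 2 males and their wild type (WT) littermates 3 females and 2 males. All were adults of a mixed C57BL6 and 129SV background and ate standard chow freely. The mutation is carried by the whole animal and not by fat alone. The exact ages of the mice were not used here.

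Adipokines are proteins that adipocytes secrete into blood or into the tissue around them. Leptin reports the size of the fat stores to the brain and is made mainly by white adipocytes, which hold 1 large lipid droplet, whereas brown adipocytes burn lipid for heat through the uncoupling protein Ucp1 and make little of it. Adiponectin and adipsin are made by both kinds of adipocyte and are among the abundant transcripts of fat. GH acts on adipocytes through its receptor and the transcription factor STAT5, and mice without GH signalling are known for altered fat mass.

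Expression is given as FPKM, fragments scaled to transcript length and to the mapped fragments of the library, so that levels can be compared between genes. The sum of FPKM per library ran from 380558 to 443569, and the relative depth, read from the steps between low values, from 0.917 to 1.14 of WT female 1. Fragment numbers are not given in the sources used here, so absolute depth is unknown. One library stood apart: KO male 1 reached Spearman correlations of only 0.924 to 0.934 with the others. Its lymphocyte markers summed to 181 FPKM against 1.41 to 2.83 in the other 8 libraries, and its macrophage markers to 430 against 27.8 to 115. The targeted gene also ran against the labels, since *Ghrh* was listed at 0 in each of the 5 WT libraries but at 0.846, 0.233, 0.799 and 0.470 FPKM in those labelled KO. Which part of the gene the mutation removes is not given in the sources used here. Directions here follow the labels. *Ghr*, the GH receptor, was at 46.8 ± 5.08 FPKM in the 4 libraries labelled KO and 94.2 ± 36.6 in the 5 labelled WT (mean ± SD), and *Igf1*, a GH target, at 1.33 ± 0.784 against 4.80 ± 2.66 (limma adjusted p 0.0660 and 0.0661).

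The tissue matched its name by *Ucp1*, at 1357 to 2992 FPKM in every library. *Ucp1* was at 2504 ± 350 FPKM in libraries labelled KO and 1820 ± 384 in those labelled WT (log2 difference 0.52, SE 0.13, limma adjusted p 0.0739). White adipocyte markers were low. Of 9 found in the files, *Hoxc10* and *Tcf21* were listed at 0 in all 9 libraries, *Hoxc9* was at or near 0, and the 6 that were above 0 everywhere carried the list. The summed FPKM of the white list was 17.3 to 39.3 in libraries labelled KO and 20.2 to 118 in those labelled WT, against 6224 to 8480 for the brown list over all libraries. In whole tissue, fewer cells of a type and less RNA per cell cannot be told apart.

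For 9 of the members, all but *Rarres2*, a RefSeq promoter window on GRCm38.p6 was at hand. Those of *Lep*, *Adipoq* and *Ccdc3* are printed because these are the members whose level in every library labelled KO lay below every library labelled WT. Each sequence is the 250 bases before the start of the transcript, on the + strand. Capitals mark a match to TTGCNNAA, the core that C/EBP factors of adipocytes bind.
*Lep*, chr6:29059971-29060220: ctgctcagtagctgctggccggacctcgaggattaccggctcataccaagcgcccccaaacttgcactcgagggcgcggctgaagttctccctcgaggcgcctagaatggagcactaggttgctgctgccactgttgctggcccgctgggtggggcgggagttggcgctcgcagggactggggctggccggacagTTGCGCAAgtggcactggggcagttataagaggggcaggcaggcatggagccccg
*Adipoq*, chr16:23146286-23146535: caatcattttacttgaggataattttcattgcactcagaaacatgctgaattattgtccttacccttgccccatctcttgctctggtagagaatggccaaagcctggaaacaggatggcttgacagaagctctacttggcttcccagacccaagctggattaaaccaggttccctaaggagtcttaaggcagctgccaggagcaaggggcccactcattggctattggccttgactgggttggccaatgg
*Ccdc3*, chr2:5137526-5137775: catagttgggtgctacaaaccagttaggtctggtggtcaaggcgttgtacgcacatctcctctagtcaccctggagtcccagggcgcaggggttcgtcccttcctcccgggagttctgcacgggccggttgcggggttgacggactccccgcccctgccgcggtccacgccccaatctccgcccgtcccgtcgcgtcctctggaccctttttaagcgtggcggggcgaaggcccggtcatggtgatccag

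The *Lep* window held the only C/EBP match of these 3, TTGCGCAA, which begins 55 bases before the start. On both strands of the windows of 300 bases, which reach 50 bases past the start, C/EBP letters were found in 10.8% of all 32817 promoters, STAT5 letters (TTCNNNGAA) in 8.29%, the E-box CACGTG in 7.15% and the PPAR repeat in 0.0396%. Among the members' 10 windows (*Rbp4* has 2), STAT5 letters occurred in that of *Agt* alone, C/EBP letters in those of *Lep* and *Rbp4*, and neither of the other motifs in any. A match is a description of letters and not a binding site.

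The members ranged from among the most abundant transcripts down to *Agt*, whose mean FPKM was above that of 40.1% of tested genes. *Cfd* was the 16th most abundant of the 24356 listed symbols by mean FPKM (2106) and *Adipoq* the 83rd (733). *Retn* (109), *Nampt* (77.1), *Rbp4* (60.8), *Rarres2* (31.3) and *Ccdc3* (19.9) followed, and *Lep* (7.28), *Apln* (2.64) and *Agt* (2.29) were lowest. Each neighbouring pair in this order overlapped in its range over the 9 libraries except *Adipoq* (463 to 1014 FPKM) and *Retn* (31.4 to 287).

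**Figure D1:**
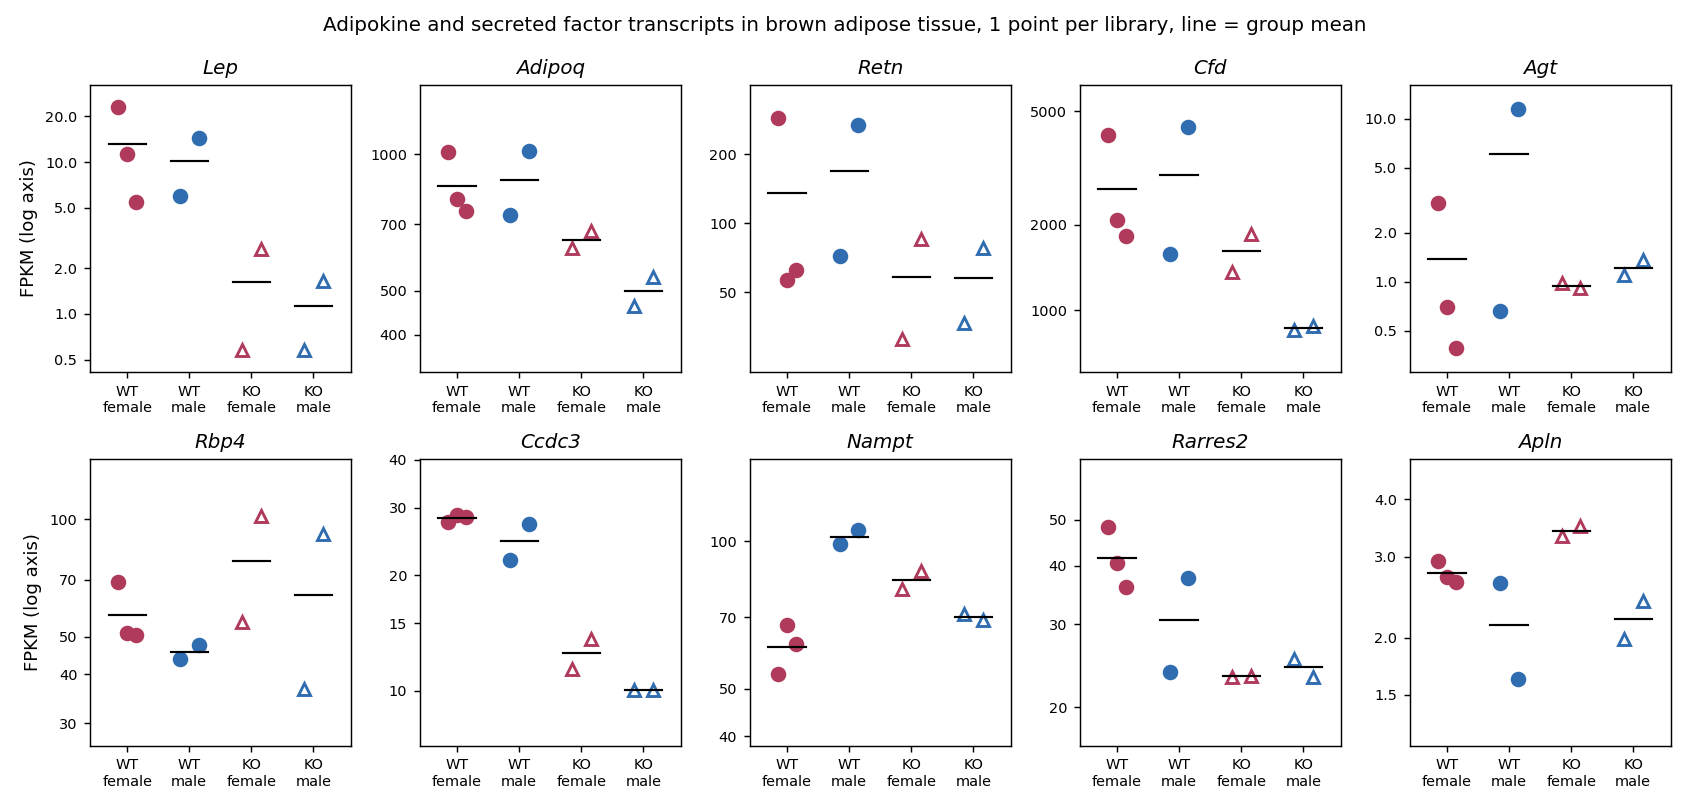
FPKM of each member (log axis) in the 9 libraries, by genotype and sex, with filled circles for libraries labelled WT, open triangles for those labelled KO, red for females, blue for males and a line at each group's mean. *Lep*, *Adipoq* and *Ccdc3* show no overlap between genotypes, *Nampt* runs opposite ways in the sexes, and WT female 1 and WT male 2 stand high in *Lep*, *Retn*, *Cfd* and *Agt*.

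With the sexes averaged, 2 members, *Lep* and *Ccdc3*, fell in libraries labelled KO and none rose (limma, Benjamini-Hochberg adjusted p under 0.05). Over all 14675 genes, 2.17% were called lower and 1.43% higher by the same rule. At an unadjusted p under 0.05, 5 members were lower (*Lep*, *Adipoq*, *Cfd*, *Ccdc3* and *Rarres2*) and 0 higher, where the background is 14.2% lower and 5.99% higher. In 3 members (*Lep*, *Adipoq* and *Ccdc3*) every library labelled KO lay below every library labelled WT, a pattern found in 6.04% of tested genes. The opposite order, in 3.03% of genes, occurred in 0 members. The log2 difference was below 0 for 8 of 10 members, with a median of -0.59 against -0.07 for all tested genes.

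**Figure D2:**
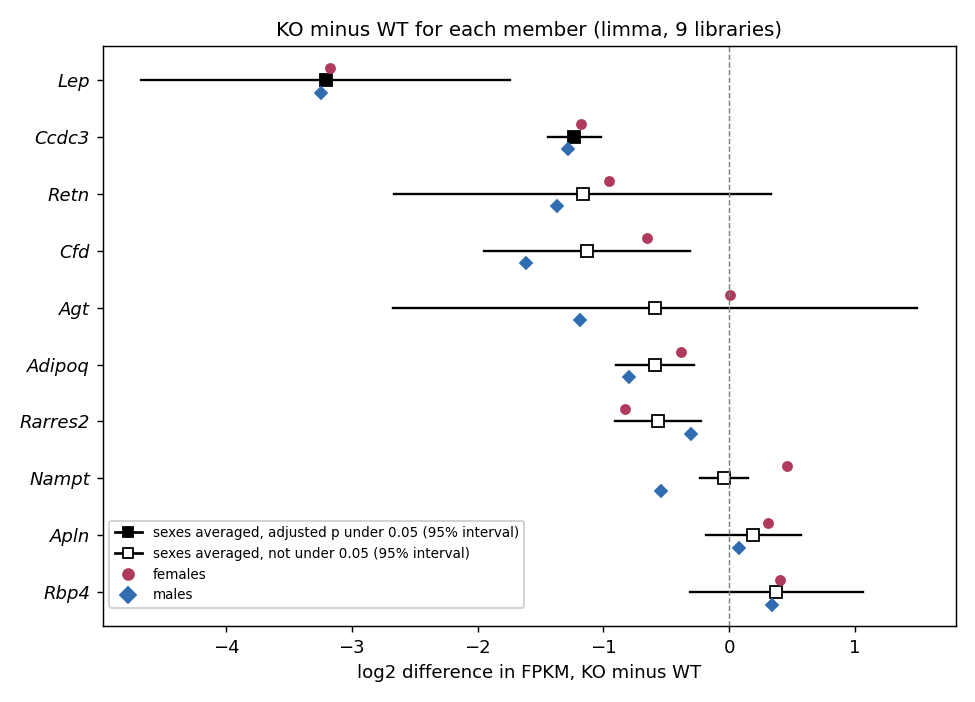
Log2 difference in FPKM, KO minus WT, for each member, with squares for the sexes averaged (filled where the limma adjusted p is under 0.05), lines for 95% intervals, circles for females and diamonds for males. *Lep* and *Ccdc3* are the filled squares, at -3.21 and -1.23, and only for *Nampt* do the female and male points lie clearly on opposite sides of 0.

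Leptin, the hormone of fat stores, showed the largest difference of the members. *Lep* (chr6:29060220-29073877) was at 23.0, 11.2 and 5.44 FPKM in WT females and 5.96 and 14.4 in WT males. In libraries labelled KO it was at 0.582 and 2.66 in females and 0.580 and 1.66 in males. The highest value labelled KO was thus under the lowest labelled WT, although values within each genotype spread over 4.59-fold (KO) and 4.22-fold (WT). Its level was 9.22-fold lower in libraries labelled KO (log2 difference -3.21, SE 0.63, 95% interval -4.67 to -1.74, limma adjusted p 0.0426). The exact permutation p was 0.00794, two-sided, the smallest that 4 against 5 libraries allow. Here and below, the permutation test ignores sex and its p is not adjusted over genes. The difference was alike in the sexes, at -3.17 in females and -3.24 in males, with an interval for their difference of -3.01 to 2.86. The adjusted p was close to its threshold. It missed 0.05 when any of 7 libraries was left out (0.0634 to 0.152, KO male 1 giving 0.0634), and passed only without KO male 2 or WT male 1, while the log2 difference stayed between -3.75 and -2.66. Both libraries at the lowest values were near 0.58 FPKM, and with 1 FPKM added before the logarithm the difference was smaller, at -2.35 (adjusted p 0.0478).

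*Adipoq* (chr16:23146536-23158028) encodes adiponectin, the abundant hormone that raises insulin sensitivity. It was at 1009, 795 and 748 FPKM in WT females, 735 and 1014 in WT males, 619 and 676 in KO females and 463 and 535 in KO males. The genotypes did not overlap in either sex, and the spread within a genotype was small (coefficient of variation 16.3% in both). The mean was 573 ± 93.5 FPKM in libraries labelled KO and 860 ± 140 in those labelled WT (log2 difference -0.59, SE 0.13), which did not pass (limma adjusted p 0.0559, and 0.00794 by the two-sided exact permutation test). The adjusted p was 0.0496 when genes with a mean FPKM below 1 were left out. It was 0.188 after median centring, 0.136 with the ordinary linear model and 0.0915 to 0.112 as single WT females were left out. Leaving out any other library left a group of 1, and the adjusted p of those fits is not given here. Over all single libraries left out, the log2 difference ran from -0.70 to -0.47. The difference was -0.38 in females and -0.79 in males, with an interval for male minus female of -1.03 to 0.20.

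*Retn* (chr8:3655770-3660110), the gene of the adipocyte hormone resistin, was dominated by a pair of WT libraries. WT female 1 and WT male 2 were at 287 and 268 FPKM, while the other WT libraries (56.3, 62.6 and 71.9) fell inside the range of those labelled KO (31.4 to 85.2). The log2 difference of -1.16 had an interval of -2.66 to 0.33 (limma adjusted p 0.373), and it ran from -1.64 to -0.69 as single libraries were left out, the smallest without WT male 2.

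*Cfd* (chr10:79890853-79892655) encodes adipsin, the complement protease that activates the alternative pathway. The same pair of libraries led, with 4114 FPKM in WT female 1 and 4423 in WT male 2. The remaining WT libraries were at 2080, 1821 and 1575, KO females at 1363 and 1854 and KO males at 849 and 878. The sexes thus differed in layout, since the genotypes overlapped in females and not in males. With the sexes averaged the log2 difference was -1.13 (SE 0.35, limma adjusted p 0.122, and 0.0476 by the two-sided exact permutation test), with -0.65 in females and -1.61 in males (interaction adjusted p 0.745). Without WT male 1 it was -1.50 with an adjusted p of 0.0361, and without WT male 2 it was -0.76 with 0.282.

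*Agt* (chr8:124556534-124569706) encodes angiotensinogen, the precursor of the angiotensins. It was at 3.03, 0.703 and 0.390 FPKM in WT females and 0.664 and 11.5 in WT males, and between 0.909 and 1.35 in every library labelled KO. WT libraries covered a 29.6-fold range and those labelled KO a 1.48-fold range, which lay inside it. The log2 difference of -0.59 (SE 0.90, limma adjusted p 0.800) turned to 0.44 without WT male 2.

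*Ccdc3* (chr2:5137776-5230878) encodes a small secreted protein of adipocytes and endothelium. Its levels were 27.6, 28.7 and 28.4 FPKM in WT females, 21.9 and 27.3 in WT males, 11.4 and 13.6 in KO females and 10.1 in each KO male. The genotypes were far apart relative to the spread within them, at 11.3 ± 1.67 against 26.8 ± 2.79 FPKM. *Ccdc3* was 2.35-fold lower in libraries labelled KO (log2 difference -1.23, SE 0.09, 95% interval -1.44 to -1.02, limma adjusted p 0.00356, and 0.00794 by the two-sided exact permutation test). It was called under all 19 alternative settings, with adjusted p from 0.00271 to 0.0411. The differences were -1.18 in females (adjusted p 0.0527) and -1.28 in males (adjusted p 0.0625). The gene overlaps a lincRNA on the opposite strand (*Gm26776*) and a processed pseudogene on its own (*Gm13198*), and whether fragments were counted by strand is not given in the sources used here.

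*Rbp4* (chr19:38116629-38125281), the blood carrier of retinol, was at 69.2, 51.1 and 50.6 FPKM in WT females, 43.8 and 47.7 in WT males, 54.6 and 102 in KO females and 36.7 and 91.5 in KO males. In each sex 1 KO library lay near the WT values or under them and the other far above, so that its log2 difference of 0.37 had an interval of -0.31 to 1.06 (limma adjusted p 0.557). It was 0.70 without KO male 1 and 0.05 without KO male 2.

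*Rarres2* (chr6:48569696-48572789), the gene of the chemoattractant chemerin, was almost constant in libraries labelled KO. They held 23.2 and 23.3 FPKM in females and 25.4 and 23.2 in males, a coefficient of variation of 4.49%. WT females were at 48.2, 40.6 and 36.0, and WT males at 23.8 and 37.7, of which the first fell among the KO values. The log2 difference was -0.56 (SE 0.15, limma adjusted p 0.0780, and 0.0238 by the two-sided exact permutation test), with -0.83 in females and -0.30 in males. It was -0.73 without WT male 1 and -0.40 without WT male 2. Without single WT females its limma adjusted p was 0.1105 to 0.1496. The gene overlaps *Lrrc61* on the opposite strand, and reads of the 2 may not be told apart.

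*Apln* (chrX:48025146-48034853), the gene of the vascular peptide apelin, was at 2.93, 2.72 and 2.65 FPKM in WT females, 2.63 and 1.63 in WT males, 3.33 and 3.51 in KO females and 1.98 and 2.41 in KO males. KO females lay above WT females, and the males overlapped. The log2 difference by genotype was 0.19 (interval -0.19 to 0.57, limma adjusted p 0.591), and it was 0.0184 without WT male 2 and 0.36 without WT male 1. Between the sexes, males minus females with the genotypes averaged, it was -0.53 (SE 0.16, adjusted p 0.337).

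*Nampt* (chr12:32819545-32853349) encodes the enzyme that makes nicotinamide mononucleotide in NAD salvage and is also released by adipocytes. WT females were at 53.5, 67.5 and 61.6 FPKM, KO females at 79.9 and 87.0, KO males at 70.9 and 69.2 and WT males at 98.7 and 105. Libraries labelled KO were thus above WT in females and below WT in males without overlap, so that the 2 KO groups lay between the WT groups. Among the tested genes 3.35% showed such opposite orders in the sexes, and 1 of the 10 members. The log2 difference was 0.46 in females (SE 0.11, limma adjusted p 0.174) and -0.54 in males (SE 0.12, adjusted p 0.0940). Their difference, male minus female, was -1.002 (SE 0.16, 95% interval -1.38 to -0.63), which did not pass over all genes (adjusted p 0.614, unadjusted limma p 0.000312). This interaction ran from -1.08 to -0.91 as single libraries were left out. Its limma adjusted p was 0.647 to 0.772 without single WT females. Leaving out any other library left a group of 1, and the adjusted p of those fits is not given here. With the sexes averaged, the log2 difference by genotype was -0.04 (adjusted p 0.850). When each library was centred on its general adipocyte markers, the male difference was only -0.12 (adjusted p 0.638) and male minus female -0.62 (adjusted p 0.535), while the female difference was 0.50. *Nampt* overlaps the lincRNA *Gdap10* on its own strand.

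By sex the fit called few genes. In females 0 members passed adjustment (0.0204% of tested genes did) and 4 were under 0.05 without it (12.7% of genes). In males these were 0 members (0.0136%) and 5 members (16.6%). For the interaction 0 members passed adjustment, as did 0% of tested genes, and 1, *Nampt*, was under 0.05 without it (7.01%). Between males and females 0 members passed adjustment (0.0136%), and 3 were under 0.05 without it (10.4%), namely *Ccdc3* (-0.26, males lower), *Nampt* (0.25, males higher) and *Apln*.

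Several members shared part of the order of the 9 libraries, an order that also holds the genotype difference. WT female 1 and WT male 2 each stood among the highest 2 of the 9 libraries for 6 of 10 members. Each was also the lowest for 1 member, and KO male 1 was the lowest for 5. White adipocyte markers were also high in WT female 1 and WT male 2, and so were other lists. The white list's mean log2 FPKM, centred on each gene's mean, was 1.25 and 1.18 there. It was 0.55, 0.73 and -0.65 in the other WT libraries. In KO female 1, KO female 2, KO male 1 and KO male 2 it was -1.02, -0.07, -1.55 and -0.42. Of the 6 white markers tested, 6 had a difference below 0 and 0 passed adjustment. In WT female 1 and WT male 2 the fibroblast and progenitor list was at 0.62 and 0.50, above every other library. Macrophage markers were at 0.48 and 0.99 there (KO male 1 at 1.56), and erythroid markers at 0.94 and 1.88 (WT female 3 at 1.23). The part of any of these lists in the *Lep*, *Retn*, *Cfd* and *Agt* values was not tested. *Lep* was at -2.95 (adjusted p 0.0865) without WT female 1 and at -2.89 (adjusted p 0.126) without WT male 2.

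Skeletal muscle markers were higher in all libraries labelled KO than in any labelled WT, with summed FPKM of 3185 to 13896 against 529 to 2691. Of 14 muscle markers, 14 had a difference above 0 and 3 passed adjustment. By centred mean, erythroid markers were lower in libraries labelled KO (-2.10 to -0.17, against 0.37 to 1.88), with 1 of 6 passing. Their summed FPKM overlapped, at 536 to 1170 against 808 to 2320. Fibroblast and progenitor markers had lower centred means for the most part (-0.58 to -0.17 against -0.20 to 0.62, 3 of 10 passing). General adipocyte markers were at -0.40 to 0.04 against 0.03 to 0.22, with 2 of 16 lower after adjustment. Brown markers (-0.45 to 0.30 against -0.24 to 0.20) and endothelial markers (-0.34 to 0.25 against -0.13 to 0.36) overlapped, with 0 of 12 and 0 of 10 passing. Macrophage markers were below 0 in 9 of 9 differences, with 2 called lower. Their centred mean was -0.71, -1.05 and -0.96 in KO female 1, KO female 2 and KO male 2, each below the lowest WT library (-0.33), and 1.56 in KO male 1. With the same centring on general adipocyte markers, the median of all genes moved up by 0.232 on the log2 scale. *Lep* was then at -2.97 (adjusted p 0.0450) and *Ccdc3* at -0.998 (adjusted p 0.0187), while *Adipoq* was at -0.36 and *Rarres2* at -0.33 (adjusted p 0.166 and 0.284). The part of these other cell types in the members' values was otherwise not tested.

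**Figure D3:**
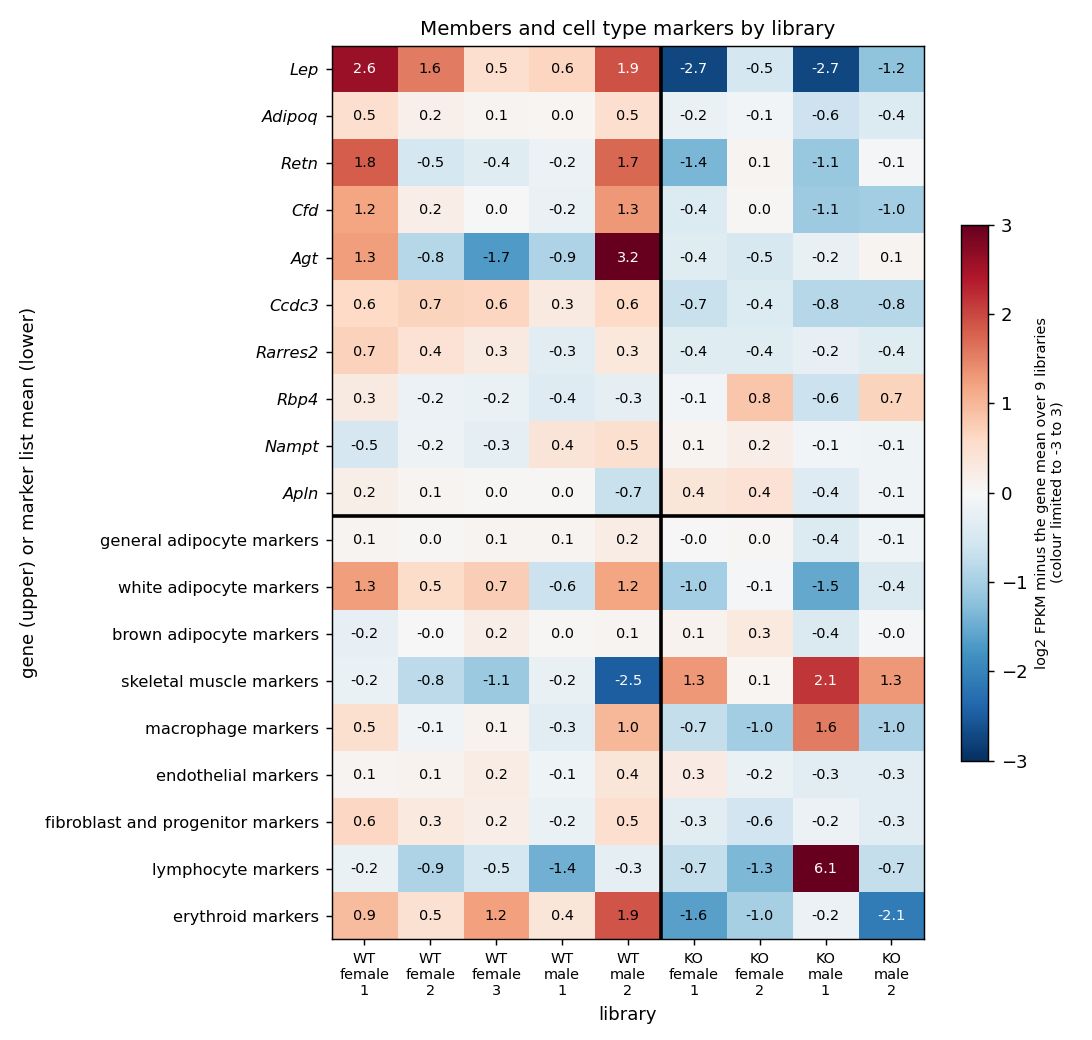
Log2 FPKM of each member (upper rows) and mean over each marker list (lower rows), minus the gene's mean over the 9 libraries, with red above and blue below that mean and colour limited to -3 to 3. WT female 1 and WT male 2 are red in *Lep*, *Retn*, *Cfd*, *Agt* and the white markers, muscle markers are positive in all 4 libraries labelled KO, and KO male 1 stands apart by its lymphocyte markers.

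Of 21 receptors and binding partners of these factors, 20 were found and 15 tested. None of the 15 was called in either direction, where the background of 2.17% lower and 1.43% higher would be less than 1 gene. At an unadjusted limma p under 0.05, 4 were lower and 0 higher (background 14.2% and 5.99%), and the median log2 difference was -0.21. *Lepr*, the leptin receptor, was low, at 0.117 to 0.321 FPKM in 8 libraries and at 2.15 in KO male 1. Of the adiponectin receptors, *Adipor2* was at 112 ± 10.3 FPKM in libraries labelled KO and 140 ± 16.1 in those labelled WT without overlap (log2 difference -0.34, SE 0.09, adjusted p 0.0794), and *Adipor1* at 54.2 ± 3.10 and 59.0 ± 4.35 (-0.11, adjusted p 0.467). *Cdh13*, the cadherin that binds adiponectin, was at 9.39 ± 1.18 and 9.20 ± 1.70 FPKM. The apelin receptor *Aplnr* was at 3.35 ± 0.333 and 5.68 ± 2.30 (-0.65, adjusted p 0.258) and the angiotensin receptor *Agtr1a* at 2.85 ± 0.477 and 3.79 ± 0.442 (-0.42, adjusted p 0.166). Among those of chemerin, *Cmklr1* was at 3.23 ± 0.693 and 5.30 ± 2.63 FPKM (-0.60, adjusted p 0.455), *Ccrl2* at 1.09 ± 0.439 and 1.18 ± 0.426 and *Gpr1* at 0.356 ± 0.0748 and 0.225 ± 0.130. *Stra6*, which takes up retinol from Rbp4, was at 0.311 FPKM or less.

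Of the enzymes and carriers that process or hold these factors, 0 of 24 tested passed adjustment, and 3 were lower and 0 higher without it, against the same backgrounds (median -0.22). *C3*, the complement protein whose fragment binds adipsin's substrate, was at 82.0 ± 29.3 FPKM in libraries labelled KO and 133 ± 31.1 in those labelled WT (log2 difference -0.77, SE 0.27, adjusted p 0.160), and without KO male 1 at -1.08 with an adjusted p of 0.0411. *Ren1*, the renin that cleaves angiotensinogen, and *Ttr*, the plasma partner of Rbp4, were listed at 0 in 8 of 9 libraries each. *Ace*, the angiotensin converting enzyme, was at 4.25 ± 1.27 against 5.17 ± 1.71 FPKM (-0.33, adjusted p 0.431). The enzymes after Nampt in NAD synthesis, *Nmnat1* (-0.10) and *Nmnat3* (-0.23), had adjusted p of 0.758 and 0.332.

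Among other secreted factors of adipose tissue, 6 of 39 tested fell and 0 rose, beside 2.17% and 1.43% of all tested genes, and the median was -0.31. At an unadjusted limma p under 0.05, 16 were lower and 3 higher, beside 14.2% and 5.99%. *Angptl2*, an angiopoietin-like protein, was at 21.0 ± 2.99 FPKM in libraries labelled KO and 38.7 ± 2.32 in those labelled WT (log2 difference -0.90, SE 0.09, adjusted p 0.0139). The matrix proteins *Sparc* (106 ± 13.1 and 179 ± 21.1 FPKM, -0.74, adjusted p 0.0290) and *Postn* (17.4 ± 3.44 and 28.9 ± 3.59, -0.73, adjusted p 0.0288) and the hyaluronan-binding *Itih5* (10.8 ± 1.34 and 15.6 ± 1.16, -0.55, adjusted p 0.0222) also fell. In each of these genes every library labelled KO lay below every library labelled WT, as in 6.04% of tested genes. They were named because they were called lower in these same libraries, so this order adds no support. *Lpl*, lipoprotein lipase, which is also on the general adipocyte list, fell by 0.48 on the log2 scale with overlap (691 ± 144 against 929 ± 163 FPKM, adjusted p 0.0347), with -0.01 in females and -0.94 in males. Its call was lost in 13 of 19 alternatives, and after centring on general adipocyte markers it was at -0.24 (adjusted p 0.178). The count of 6 depends on single libraries and on scaling. It was 0 without WT female 1, KO female 1 or KO female 2, 1 without WT female 3 or WT male 2 and 2 without WT female 2, and it was 2 after median centring and 1 with the ordinary linear model and adjustment. Of the transcriptional regulators of adipocyte genes, 0 of 21 tested were called (2 lower and 2 higher unadjusted) with a median of -0.07, beside -0.07 for all genes.

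**Figure D4:**
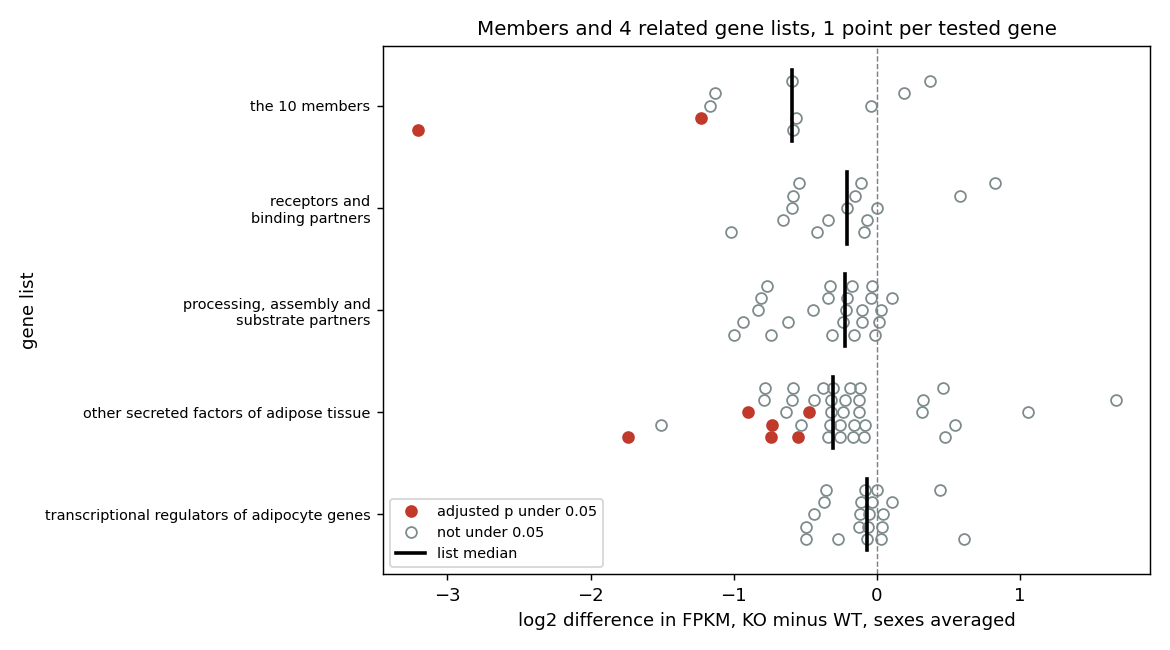
Log2 difference in FPKM, KO minus WT with the sexes averaged, for the 10 members and 4 related gene lists, 1 point per tested gene (red where the limma adjusted p is under 0.05), with a line at each list's median. Medians are -0.59 for the members, -0.21, -0.22 and -0.31 for receptors, processing partners and other secreted factors, and -0.07 for regulators, and called genes are found among the members and the other secreted factors.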

How the data were processed

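Poly(A) RNA from BAT of 9 mice was sequenced as paired reads of 50 bases (KO females 2, KO males 2, WT females 3, WT males 2, grouped by the titles in the labels). The authors deposited 1 table of FPKM per library. Reads had been converted with bcl2fastq 1.8.4 and aligned to mm10 with TopHat 2.0.11, and abundances are credited to Bowtie. Fragment counts, strand and gene models are not given in the sources used here, so no counting interval is given. Nothing says more on replicates than separate animal numbers.

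FPKM above 0 in all 9 libraries (14675 genes) were put on the log2 scale without pseudocount and fitted by limma 3.58.1 (R 4.3.3) with a mean for each of the 4 groups and a mean-variance trend. Benjamini-Hochberg adjustment ran over all tested genes at 0.05. Exact permutation tests used all divisions of the 9 libraries into 4 and 5, two-sided, without regard to sex and without adjustment over genes. This moderated fit stands in for the ordinary linear model with a p under 0.01 in the study's methods, which is an alternative. Other alternatives were pseudocounts of 0.1 and 1, other filters, 3 scalings, a model without interaction and leaving out each library. With a library left out, a group of 1 is assumed to vary like the others. The fit was tested on simulated data. Positions come from GENCODE M21 (GRCm38), promoters from RefSeq.

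The members and lists were chosen with earlier results of these data known. Named are all members, *Ghrh*, *Ghr*, *Igf1* and *Ucp1*, every related-list gene called with the sexes averaged except 1 that is not reported here, and a fixed set of receptors and partners. Marker and related lists were written by hand, and *Lpl* stands on a related and a marker list. Figures used Python 3.11.15 with pandas 2.3.3, numpy 2.4.6 and matplotlib 3.10.9, and permutation tests R.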

Additional observations from a re-analysis of the deposited data

Results flagged for a closer look

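*Nampt* went opposite ways in the sexes, with every KO female above every WT female and every KO male below every WT male. The difference between the sexes was -1.002 on the log2 scale, and it did not pass adjustment over all genes (limma adjusted p 0.614). After centring on general adipocyte markers it was -0.62, with -0.12 in males.

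Some single libraries stood apart within their genotype by Dixon's criterion for small groups, which chance alone meets in about 1 of 20 groups. The criterion was applied in both genotypes to all members and to other named genes, so some libraries would be flagged by chance alone. In *Ccdc3*, WT male 1 at 21.9 FPKM lay under the other 4 WT libraries. In *Rarres2*, KO male 1 at 25.4 FPKM lay above the other 3 libraries labelled KO. In *Apln*, WT male 2 at 1.63 FPKM lay under the other WT libraries. In *Nmnat1*, KO male 2 at 8.55 FPKM lay above the other libraries labelled KO.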

How the results depend on the processing

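The 2 members called with the sexes averaged became 1 (*Ccdc3*) with no filter on low values, median centring, quantile normalization and the ordinary linear model with adjustment, and 1 to 5 when single libraries were left out (5 without WT male 1). The 529 genes called in all became 170 with no filter, 222 with median centring, 19 and 1107 with the ordinary linear model at an adjusted p under 0.05 and an unadjusted p under 0.01, and 8 to 1105 without single libraries. Of the 529, 60.3% were lower in libraries labelled KO. Each other scaling called its own set of genes. Of these sets, 41.4% of 222 were lower after median centring, 48.6% of 444 after quantile normalization and 14.7% of 353 after centring on adipocyte markers. Within females and within males 0 members became 1 with a mean FPKM of at least 1, 2 with the unadjusted linear model and 0 to 1 without single libraries, and for the interaction 0 became 1 with the unadjusted model and 0 to 1 without single libraries. Between males and females the count stayed at 0 under the 18 alternatives.

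Signs turned in a few results that had passed no test. *Nampt* averaged was 0.0167 after median centring, 0.19 after centring on adipocyte markers and 0.00406 without the interaction term. Centring on adipocyte markers gave 0.12 for *Adipor1*, 0.13 for *Nmnat1* and 0.12 for *Rarres2* in males, whose values without single libraries ran from -0.63 to 0.0318. *Agt* averaged ran from -1.62 to 0.44 without single libraries. The cause was not tested.

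With 2 or 3 libraries a group, the spread estimate and the adjusted p rest on few animals, and depth is unknown. No paired analysis was possible because the labels carry no replicate numbers shared between groups.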
